A study of Mus musculus with 27 samples.

Results

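GABAergic interneurons are the inhibitory nerve cells of the cortex, and 35 genes that mark them or their subclasses were followed in cortical RNA of 5xFAD mice. The members were chosen by symbol, as the rows of the expression table whose lower-case symbol stood in a list of interneuron genes, such as gad1, gad2, slc32a1, pvalb, sst, vip and npy. All 35 were found among 26264 symbols. The rule uses no measured value, although the list was drawn up with earlier results of these data known. In the text the symbols are written in the usual mouse form (Gad1).

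The study asked which changes follow when retromer, a complex that sorts cargo out of endosomes, is stabilised by a small molecule. Female 5xFAD/C57BL6 mice aged 16 weeks received 500 nL of R55, R33 or vehicle into the lateral parietal associative cortex of 1 hemisphere, and tissue was taken 24 h later. All mice, controls included, carried the 5xFAD transgenes, among them human APP with the Swedish, Florida and London mutations. No wild-type mouse was among the libraries used, so the values describe treatment of a transgenic cortex and not the effect of the transgenes. R55 and R33 are thiophene thioureas given as hydrochloride salts at 10 mM. The vehicle held the same 3% DMSO and 20% sulfobutylether beta-cyclodextrin in saline. A cortical block of about 1 mm3 from the injected hemisphere and another from the contralateral hemisphere were sequenced as separate libraries. The 27 libraries came from 4 vehicle, 5 R33 and 5 R55 mice, with both hemispheres for 13 mice and the injected hemisphere only for R33 mouse AE. Mice are named by the letters of their labels.

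Cortical interneurons make GABA with the glutamate decarboxylases encoded by Gad1 and Gad2, and load it into vesicles with the transporter encoded by Slc32a1. Most arise in the medial or caudal ganglionic eminence of the embryo. Cells of medial origin largely carry parvalbumin or somatostatin, and cells of caudal origin carry vasoactive intestinal peptide, reelin, Lamp5 or related markers. Parvalbumin cells inhibit the cell body of pyramidal neurons, somatostatin cells inhibit their dendrites, and Vip cells mostly inhibit other interneurons.

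Libraries held 15932196 to 38077026 fragments on genes. Values are FPKM, fragments scaled to gene length and to the fragments counted in the library, so levels can be compared between genes. Markers of excitatory cortical neurons were present in every library, with a summed level of 1212 to 2118 FPKM over 8 genes. In a bulk sample, fewer cells of a type and less RNA per cell cannot be told apart. Several libraries stood apart by markers of other tissue. Striatal markers were high in 2 libraries. Their sum over 6 genes was 191 FPKM in the injected library of vehicle mouse L and 281 FPKM in that of R33 mouse N, against 35.7 to 96.3 FPKM in the other 25. The injected library of R33 mouse O had the lowest excitatory sum, 1212 FPKM, and the highest oligodendrocyte sum over 5 genes, 2340 FPKM. Choroid plexus markers, summed over 3 genes, were 409 to 1646 FPKM in 5 libraries, the injected of N, the contralateral of J and O, and both of R33 mouse K. They were 3.84 to 152 FPKM in the other 22. Counts of members, and hemisphere differences of some members, are also given without some of these libraries. Treatment differences of single members are not given without them. Dentate gyrus markers, summed over 3 genes, ranged from 0.594 to 31.6 FPKM, and no fit left out libraries by them.

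The members covered more than 3 orders of magnitude (the plot of levels by member). Cck, which encodes cholecystokinin and is also made by excitatory neurons, was the most abundant at a mean of 409 FPKM over 27 libraries. Sst followed with a mean of 301 FPKM, Npy with 156 FPKM and Lamp5 with 139 FPKM. The lowest levels were those of Tacr1, the substance P receptor, and Chodl, which marks long-range somatostatin cells. Tacr1 measured 0.148 to 1.70 FPKM, from 21 to 172 fragments per library, and Chodl 0.084 to 0.490 FPKM, from 5 to 38 fragments. Both were under the mean of 1 FPKM required for testing, so 33 of the 35 members were tested.

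**Figure D1:**
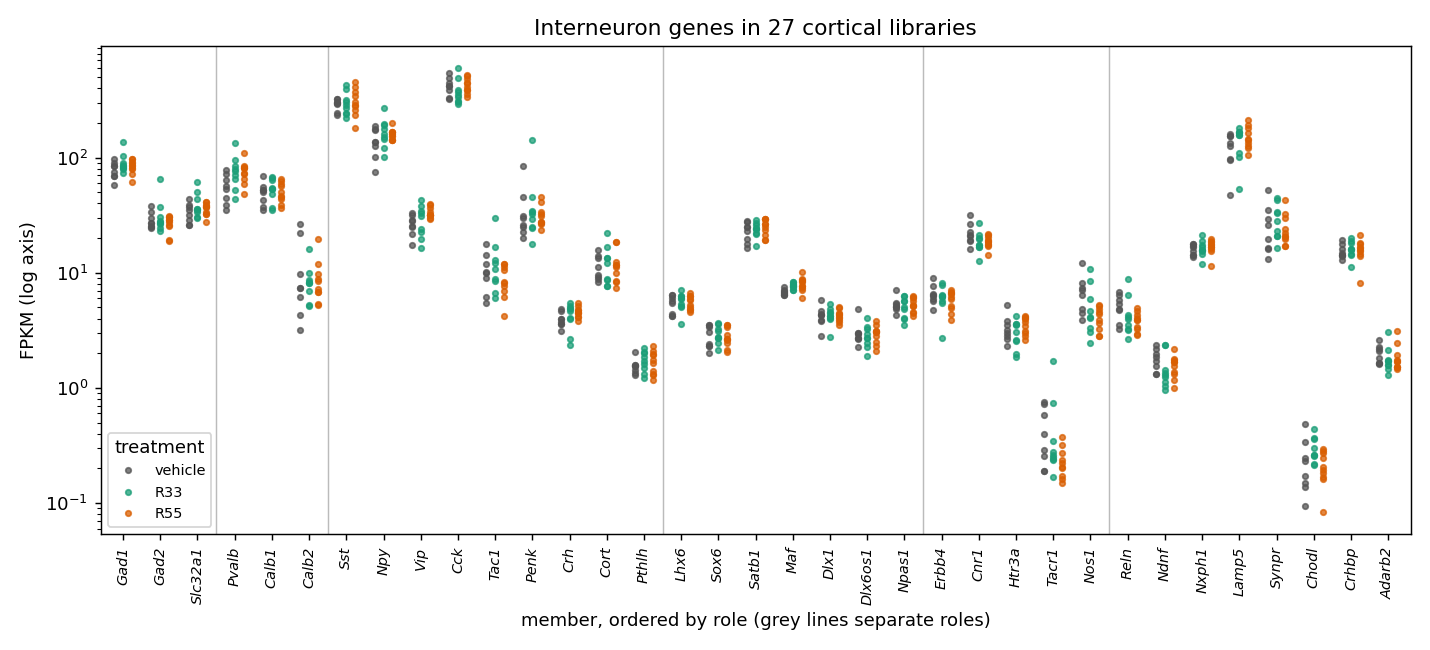
FPKM on a log axis of each of the 35 members in the 27 libraries, ordered by role, with points coloured by treatment. Cck and Sst are the most abundant, Chodl lies below 1 FPKM in all libraries and Tacr1 in all but 1.

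Short stretches of promoter are shown for the members with an unadjusted p under 0.05 between treatments or hemispheres, except Maf, which has no entry, and for Sst, whose promoter is a textbook target of the cAMP response element binding protein. Each runs 5′ to 3′ over the 150 bases before the transcription start given by RefSeq on GRCm38.p6, and capitals mark matches to TGACGTCA or to its core TGACG on either strand (CGTCA on the other). Gad1 lies on the plus strand at chr2:70561979-70562128, Gad2 on the plus strand at chr2:22622177-22622326, Vip on the plus strand at chr10:5639068-5639217, Pvalb, at 1 of its 2 listed starts, on the minus strand at chr15:78206401-78206550, Nos1 on the plus strand at chr5:117866689-117866838, Reln on the minus strand at chr5:22344706-22344855, Cort on the minus strand at chr4:149126764-149126913 and Sst on the minus strand at chr16:23890845-23890994.
Gad1: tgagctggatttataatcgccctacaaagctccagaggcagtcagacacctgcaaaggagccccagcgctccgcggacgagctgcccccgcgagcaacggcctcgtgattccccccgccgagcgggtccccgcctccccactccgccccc
Gad2: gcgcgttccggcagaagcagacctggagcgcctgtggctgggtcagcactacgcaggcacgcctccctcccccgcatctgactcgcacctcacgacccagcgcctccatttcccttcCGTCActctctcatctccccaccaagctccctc
Pvalb: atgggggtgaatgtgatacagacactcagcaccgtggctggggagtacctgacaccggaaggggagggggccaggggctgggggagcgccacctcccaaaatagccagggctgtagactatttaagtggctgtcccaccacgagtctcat
Vip: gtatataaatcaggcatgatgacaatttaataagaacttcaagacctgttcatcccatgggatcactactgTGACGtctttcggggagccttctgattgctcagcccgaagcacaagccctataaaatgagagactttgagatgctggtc
Nos1: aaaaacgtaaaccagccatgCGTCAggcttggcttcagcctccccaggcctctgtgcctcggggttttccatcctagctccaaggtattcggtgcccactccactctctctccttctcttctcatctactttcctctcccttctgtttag
Reln: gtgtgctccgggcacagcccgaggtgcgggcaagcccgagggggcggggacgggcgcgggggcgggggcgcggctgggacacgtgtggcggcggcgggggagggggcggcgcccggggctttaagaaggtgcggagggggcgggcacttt
Cort: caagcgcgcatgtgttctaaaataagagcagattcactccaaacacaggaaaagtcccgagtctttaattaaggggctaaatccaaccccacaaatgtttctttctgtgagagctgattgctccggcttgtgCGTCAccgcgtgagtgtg
Sst: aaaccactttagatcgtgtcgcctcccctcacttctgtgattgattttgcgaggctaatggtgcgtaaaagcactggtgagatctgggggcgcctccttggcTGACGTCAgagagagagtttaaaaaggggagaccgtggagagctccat

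The full TGACGTCA stood at positions -48 to -41 of Sst, counted from the transcription start. RefSeq windows of 300 bases were matched for 28 of the 35 members, in 45 promoters, and not for Calb1, Calb2, Crh, Maf, Penk, Htr3a and Ndnf. TGACGTCA was present in 1 of these 45, that of Sst (2.22%), and in 1.79% of all 32851 promoters. The core TGACG was present in 11 of 45 member promoters (24.4%) and in 20.8% of all promoters, so members carried it at about the general rate. A match is a description of the sequence and was not tied to binding in these mice.

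The first comparison asked how interneuron genes differed between drug-treated and vehicle mice. Pvalb was higher than in vehicle mice by a log2 fold change of 0.47 in R55 as well as R33 mice, and Vip was higher by 0.35 in R55 mice. Nos1 and Reln were lower in R55 mice, by -0.58 and -0.33. Maf was higher by a small amount after R55 and R33. None of these differences passed adjustment over all genes, and no member was called in any treatment comparison.

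After R55, 0 of 33 members had an adjusted p under 0.05 (limma with Benjamini-Hochberg adjustment), where 0.00771% of all 12976 tested genes were called. The fit counted the libraries of a mouse as separate, so the p-values of treatment differences given here and below may be too small. At an unadjusted p under 0.05 there were 5 members (15.2%), against 8.45% of all tested genes. Of these, 3 were higher, where 4.71% of all genes were higher, and 2 were lower, where 3.74% were lower. At the share of all genes, 2.79 members would be found. Without the 5 libraries with high choroid plexus markers there were 3, and the share of all genes in that fit is not given here. The median member difference was 0.04 and that of all tested genes 0.03, both as log2 fold changes of FPKM + 1. Among the members, 20 of 33 differences were above 0 (60.6%), and among all genes 60.2% were.

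After R33, 0 members were called, as were 0% of all genes. At an unadjusted p under 0.05 there were 2 members (6.06%), against 5.87% of all genes. The 2 members were higher, where 3.19% of all genes were higher, and 0 members were lower, where 2.68% of all genes were lower. The median member difference was 0.06, against 0.02 over all genes. The count depended on the libraries included. It was 7 without the injected library of R33 mouse O, 5 without R33 mouse O or N, and 8 without vehicle mouse AH. It was 1 without vehicle mouse J or R33 mouse AD, and 0 in the injected hemisphere alone or without the 5 libraries with high choroid plexus markers. No member was called in any of these. The share of all genes in each of these fits is not given here, so the counts cannot be set against it. R55 and R33 were compared with the same vehicle libraries, so their differences from vehicle are not independent of each other.

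**Figure D2:**
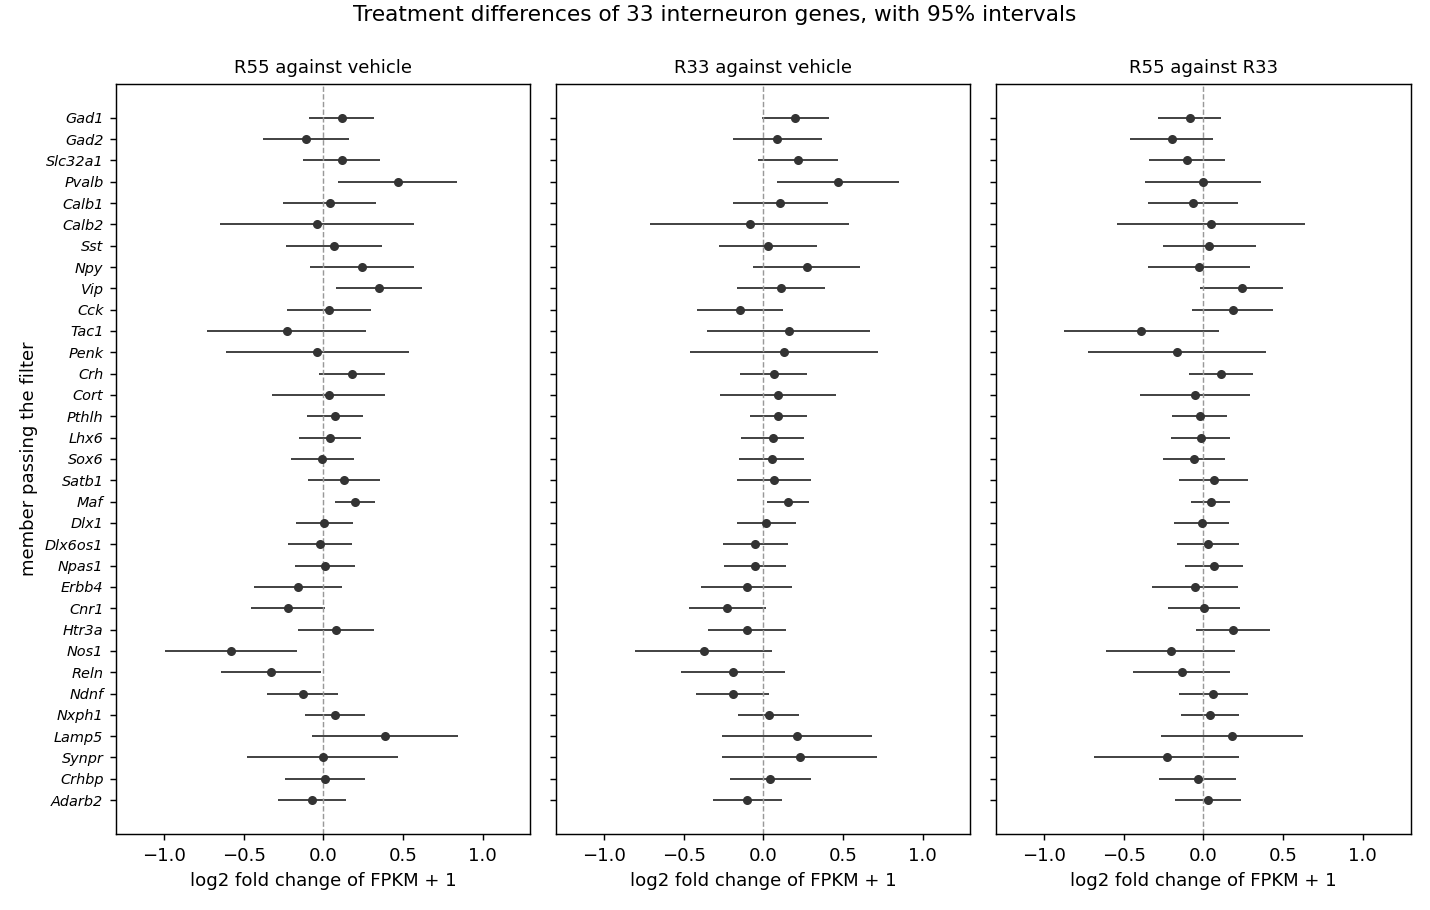
Log2 fold changes of FPKM + 1 with 95% intervals from limma, 1 row for each of the 33 tested members and 1 panel for each treatment comparison. Pvalb at 0.47 and Nos1 at -0.58 lie farthest from 0 against vehicle after R55, and the interval of every member includes 0 between R55 and R33.

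The genes of GABA synthesis and packaging differed little between treatments. The enzyme gene Gad1, on GRCm39 at chr2:70383416-70432372, averaged 73.7, 71.7, 82.6 and 84.2 FPKM in vehicle mice J, M, L and AH. It averaged 83.1, 82.9, 108, 88.5 and 88.7 FPKM in R33 mice K, AE, O, N and AD, and 91.7, 93.9, 82.4, 70.3 and 83.5 FPKM in R55 mice P, AA, Q, R and AB. The drug groups overlapped the vehicle mice, and the highest mouse was O. Group means were 78.0 ± 6.27 FPKM in vehicle mice (SD, n = 4), 90.2 ± 10.2 FPKM after R33 (n = 5) and 84.4 ± 9.32 FPKM after R55 (n = 5). The log2 fold change was 0.12 (SE 0.10, limma adjusted p = 0.691) after R55 and 0.20 (SE 0.10, limma adjusted p = 0.834) after R33.

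Gad2, which makes the decarboxylase tied to nerve terminals, averaged 31.0, 25.4, 30.3 and 28.4 FPKM in the vehicle mice in the same order. The R33 mice measured 25.9, 28.3, 46.2, 33.9 and 24.8 FPKM, and the R55 mice 29.4, 29.0, 25.1, 22.2 and 27.3 FPKM. Mouse O again stood highest, and the groups overlapped. Slc32a1, the vesicular GABA transporter gene, averaged 30.5, 27.4, 37.5 and 37.9 FPKM in vehicle mice. It averaged 30.3, 33.6, 48.1, 42.7 and 39.9 FPKM after R33, and 34.6, 38.2, 37.4, 29.9 and 39.3 FPKM after R55. Its log2 fold change was 0.11 (SE 0.12) after R55 and 0.22 (SE 0.12) after R33, neither called (limma adjusted p = 0.737 and 0.850).

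Among the calcium-binding proteins, Pvalb had the largest difference. Pvalb, on GRCm39 at chr15:78075314-78091149, encodes parvalbumin, which buffers calcium in fast-spiking interneurons. It averaged 43.9, 50.8, 55.3 and 71.4 FPKM in vehicle mice J, M, L and AH, 75.2, 76.4, 61.6, 61.4 and 114 FPKM in R33 mice K, AE, O, N and AD, and 70.0, 82.9, 61.3, 77.5 and 87.5 FPKM in R55 mice P, AA, Q, R and AB. All drug-treated mice were above 3 of the 4 vehicle mice, and vehicle mouse AH lay within the range of either drug group. The means were 55.4 ± 11.7 FPKM in vehicle mice (SD, n = 4), 77.8 ± 21.7 FPKM after R33 (n = 5) and 75.8 ± 10.4 FPKM after R55 (n = 5).

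For Pvalb the log2 fold change after R55 was 0.47 (SE 0.18, 95% interval 0.09 to 0.84, unadjusted p = 0.0164, limma adjusted p = 0.552). After R33 it was 0.47 (SE 0.19, 95% interval 0.09 to 0.85, unadjusted p = 0.0185, limma adjusted p = 0.834). Without R33 mouse AD the R33 value was 0.30. The R55 difference was 0.81 in the contralateral and 0.13 in the injected hemisphere. The difference between these values had an unadjusted limma p of 0.0653 in the main fit (adjusted p = 0.999). With the mouse as a block it had an unadjusted p of 0.0420 (limma adjusted p = 0.806). In the block fit 4 of 33 members were under 0.05 unadjusted, as were 770 of 12976 genes. Calb1, which encodes calbindin, averaged 49.3 ± 9.82, 51.3 ± 10.02 and 50.5 ± 8.81 FPKM in vehicle, R33 and R55 mice (SD, n = 4, 5 and 5). Calb2, which encodes calretinin, averaged 10.8 ± 9.20, 8.46 ± 1.39 and 8.999 ± 3.55 FPKM, with the wide vehicle spread coming from mouse J at 24.3 FPKM.

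Of the 9 neuropeptide genes, Vip had an unadjusted p under 0.05. Vip, on GRCm39 at chr10:5589186-5599956, encodes vasoactive intestinal peptide. It averaged 27, 19.6, 28.3 and 30.4 FPKM in vehicle mice J, M, L and AH, and 33.1, 31.6, 35.3, 31.8 and 35.4 FPKM in R55 mice P, AA, Q, R and AB. The R55 mice all lay above the highest vehicle mouse. The R33 mice measured 26.8, 19.4, 24.8, 33.1 and 36.0 FPKM and spanned both groups. The 19.4 FPKM of mouse AE came from its injected library alone. The log2 fold change after R55 was 0.35 (SE 0.13, 95% interval 0.08 to 0.62, unadjusted p = 0.0127, limma adjusted p = 0.552). Without vehicle mouse M it was 0.22, with an unadjusted limma p of 0.0939. After R33 it was 0.11 (SE 0.13). R55 mice were above R33 mice by 0.24 (SE 0.13, 95% interval -0.02 to 0.50), which was not called (limma adjusted p = 0.9998).

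Sst, the somatostatin gene with the cAMP response element shown above, averaged 279, 267, 299 and 314 FPKM in vehicle mice. It averaged 232, 319, 252, 296 and 409 FPKM after R33 and 262, 390, 377, 220 and 311 FPKM after R55. Both drug groups reached below and above the vehicle mice, and the log2 fold changes were 0.07 (SE 0.15) after R55 and 0.03 (SE 0.15) after R33. Npy, the neuropeptide Y gene, averaged 88.5, 131, 162 and 175 FPKM in vehicle mice. It averaged 149, 160, 147, 149 and 233 FPKM after R33 and 143, 161, 151, 168 and 176 FPKM after R55. The drug groups overlapped the upper vehicle mice, with log2 fold changes of 0.25 (SE 0.16) and 0.27 (SE 0.16) for R55 and R33 that were not called (limma adjusted p = 0.631 and 0.850).

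The remaining peptides Cck, Tac1, Penk, Crh, Cort and Pthlh had log2 fold changes of -0.23 (Tac1) to 0.18 (Crh) after R55 and of -0.15 (Cck) to 0.16 (Tac1) after R33. Tac1 encodes substance P, Penk the enkephalin precursor and Crh corticotropin-releasing hormone.

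The transcription factor gene Maf, which acts in interneurons of medial origin, had the smallest p among the members after R55. Maf lies on GRCm39 at chr8:116409632-116434579. It averaged 6.60, 6.55, 7.09 and 6.96 FPKM in vehicle mice J, M, L and AH, 7.73, 7.08, 7.69, 7.66 and 8.04 FPKM in the R33 mice and 7.37, 7.86, 6.85, 9.49 and 8.53 FPKM in the R55 mice. R55 mouse Q lay within the vehicle range, and the lowest R33 mouse was level with the highest vehicle mouse. The log2 fold change was 0.20 (SE 0.06, unadjusted p = 0.0031, limma adjusted p = 0.485) after R55 and 0.16 (SE 0.06, unadjusted p = 0.0207, limma adjusted p = 0.834) after R33. The other 5 transcription factor genes, Lhx6, Sox6, Satb1, Dlx1 and Npas1, and the antisense RNA Dlx6os1 had R55 differences between -0.02 and 0.13. Dlx6os1 lies antisense to the Dlx6 locus, and since the strand setting of the counting is not given in the sources used here, its value is uncertain.

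Nos1, on GRCm39 at chr5:117918971-118096905, encodes neuronal nitric oxide synthase. It averaged 9.32, 7.19, 6.47 and 4.19 FPKM in vehicle mice J, M, L and AH, 3.87, 5.88, 7.39, 6.27 and 2.89 FPKM in R33 mice K, AE, O, N and AD, and 4.24, 4.86, 4.13, 2.82 and 4.25 FPKM in R55 mice P, AA, Q, R and AB. The R55 mice lay below vehicle mice J, M and L and around AH. The log2 fold change was -0.58 after R55 (SE 0.20, 95% interval -0.996 to -0.16, unadjusted p = 0.00837, limma adjusted p = 0.545) and -0.37 after R33 (SE 0.21, limma adjusted p = 0.850). Among mice with a 1-letter label (3 vehicle, 3 R55) the R55 difference was -0.85. The mice with a 2-letter label were AH at 4.19 FPKM for vehicle and AA and AB at 4.86 and 4.25 FPKM for R55. The labels do not say what the number of letters stands for.

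Reln, on GRCm39 at chr5:22089452-22549700, encodes the extracellular protein reelin. It averaged 6.10, 3.36, 5.59 and 5.36 FPKM in vehicle mice, 3.20, 3.998, 6.57, 5.31 and 3.11 FPKM after R33 and 4.45, 3.72, 4.40, 3.05 and 3.43 FPKM after R55. The R55 mice lay below 3 of the 4 vehicle mice, and vehicle mouse M lay among them. The log2 fold change after R55 was -0.33 (SE 0.15, unadjusted p = 0.0427, limma adjusted p = 0.584). Cnr1, the cannabinoid receptor gene of cholecystokinin cells, differed by -0.22 (SE 0.11) after R55 and by -0.22 (SE 0.12) after R33, with unadjusted limma p of 0.065 for both. Lamp5, a marker of neurogliaform cells, differed by 0.39 (SE 0.22) after R55, the largest positive difference among members with an unadjusted p above 0.05. Among mice with a 1-letter label the R55 difference of Lamp5 was 0.56. Among those with a 2-letter label (1 vehicle, 2 R55) it was -0.11. For Cnr1 the 2 values were -0.32 and 0.08, and for Reln -0.26 and -0.48.

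**Figure D3:**
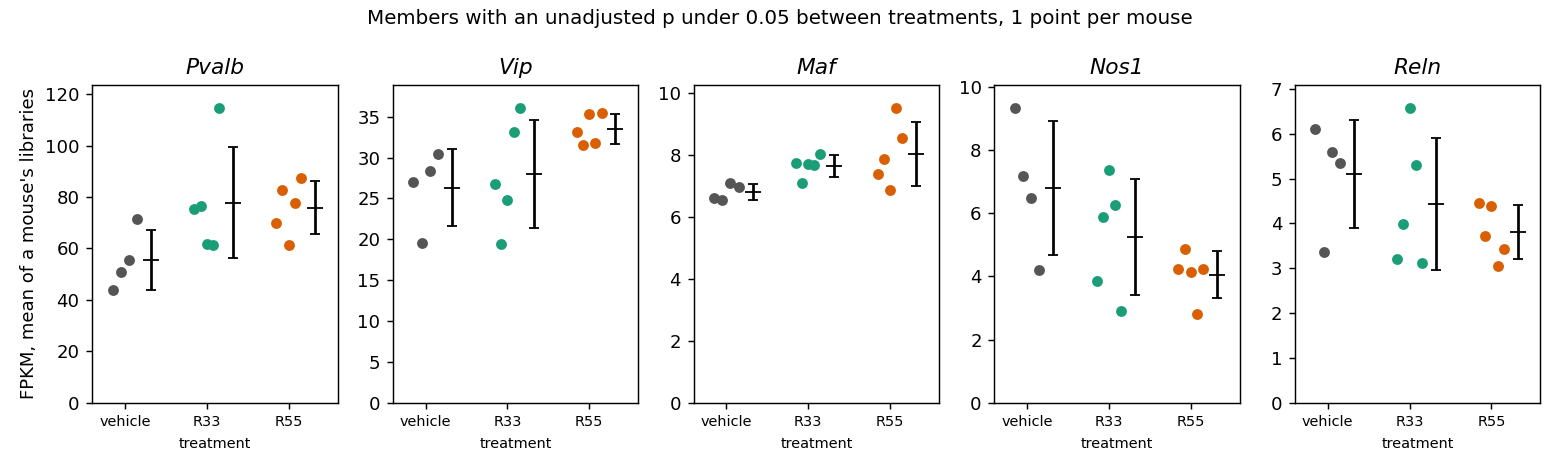
FPKM of Pvalb, Vip, Maf, Nos1 and Reln in each mouse, as the mean of its libraries, with group mean and SD in black (4 vehicle, 5 R33 and 5 R55 mice). All 5 R55 mice lie above the vehicle mice for Vip, and vehicle mouse AH lies within the R55 range for Pvalb.

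Gene length moved with these differences. Nos1 and Reln are long, at 9695 and 11698 bp as used in the FPKM, while Pvalb and Vip are short, at 1043 and 1529 bp. Over the 33 members the rank correlation of the R55 difference with length was -0.48, and over all tested genes it was -0.49, so the members followed the whole table. It is across genes, which are not independent replicates. With the length trend removed from each library the R55 differences were 0.37 for Pvalb, 0.27 for Vip, 0.18 for Maf, -0.44 for Nos1 and -0.15 for Reln. The unadjusted limma p of Reln then became 0.291, and those of the other 4 remained under 0.05. The part of length in the treatment differences was otherwise not tested.

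Directly compared, R55 and R33 gave 0 called members, as for 0% of all genes, and 0 members with an unadjusted p under 0.05, against 1.15% of all genes. The widest difference was that of Tac1, -0.39. Tac1 was highest, at 29.8 FPKM, in the injected library of R33 mouse N with its striatal markers. Choroid plexus markers also differed in level: Folr1 and Kl were lower after R55 than after R33 by -1.01 and -1.03, neither called, and their part in the member values was not tested. Intervals were wide enough to leave sizeable differences possible. For Pvalb the R55 minus R33 value was -0.00 with a 95% interval of -0.37 to 0.36, for Gad1 -0.09 with -0.28 to 0.11, for Sst 0.04 with -0.25 to 0.33 and for Nos1 -0.20 with -0.61 to 0.20. R55 and R33 were thus not separated by any member at this sample size, which does not show that they act alike.

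The second comparison set the injected against the contralateral hemisphere, over all treatments, Gad1 and Gad2 were higher in the injected hemisphere by 0.21 and 0.27, and Cort and Vip were lower by -0.34 and -0.25. No member was called, as for 0% of all tested genes (limma adjusted p = 0.9999 for each of the 4). At an unadjusted p under 0.05 there were 4 members (12.1%), against 3.47% of all genes. Of these, 2 were higher, where 1.46% of all genes were, and 2 were lower, where 2.01% were. The median member difference was -0.02, against 0.00 over all genes, and 11 of 33 members (33.3%) were above 0, where 50.7% of all genes were. Without the injected libraries of L, N and O there were 2 members with an unadjusted p under 0.05, and without the 5 libraries with high choroid plexus markers there was 1. The shares of all genes in those fits are not given here.

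Cort encodes cortistatin, a peptide related to somatostatin and made by part of the interneurons. It measured 7.60 to 16.7 FPKM in the 14 injected libraries (median 8.98) and 7.34 to 22.2 FPKM in the 13 contralateral libraries (median 12.4). Within mice it was lower on the injected side in 12 of 13, with R55 mouse R the exception. The log2 fold change was -0.34 (SE 0.14, unadjusted p = 0.0232). With the mouse as a block it was -0.37 (SE 0.07, unadjusted p = 9.29e-05, limma adjusted p = 0.274), and it was -0.27 without the injected libraries of L, N and O. The vehicle mice alone, where no drug was given, had a mean difference of -0.29, and it was lower in 4 of 4.

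Vip measured 16.4 to 36.6 FPKM in the injected libraries (median 26.7) and 17.5 to 42.4 FPKM in the contralateral ones (median 31.8). It was lower on the injected side in 9 of 13 mice, with a log2 fold change of -0.25 (SE 0.11, unadjusted p = 0.0256). It was -0.19 without the injected libraries of L, N and O, and -0.08 with the mouse as a block and those 3 mice left out, with unadjusted limma p of 0.0834 and 0.322. The 4 R33 mice were all lower on the injected side, by a mean of -0.59, against -0.11 in vehicle mice and -0.02 in R55 mice.

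Gad1 measured 74.8 to 137 FPKM in the injected libraries (median 86.6) and 57.4 to 97.3 FPKM in the contralateral ones (median 79.1). It was higher on the injected side in 8 of 13 mice, with a log2 fold change of 0.21 (SE 0.08, unadjusted p = 0.0149). Mice with a 1-letter label had it higher in 8 of 9, by a mean of 0.35, and mice with a 2-letter label in 0 of 4, by a mean of -0.06. Gad2 measured 23.1 to 65.0 FPKM against 18.9 to 30.5 FPKM and was higher in 11 of 13 mice, with a log2 fold change of 0.27 (SE 0.11, unadjusted p = 0.0195). It was higher in 9 of 9 mice with a 1-letter label, by a mean of 0.41, and in 2 of 4 with a 2-letter label, by a mean of -0.01. Slc32a1 had a difference of 0.12 (SE 0.10) and was higher in 7 of 13 mice.

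The Gad1 and Gad2 differences were smaller without 3 libraries. Without the injected libraries of L, N and O the values were 0.13 (SE 0.07) for Gad1 and 0.15 (SE 0.08) for Gad2, with unadjusted limma p of 0.0911 and 0.0679. In the injected library of mouse O, Gad1 was 137 FPKM, Gad2 65.0 FPKM and Slc32a1 61.3 FPKM, the highest of all 27 libraries for each. Its excitatory marker Slc17a7, the vesicular glutamate transporter of cortical pyramidal cells, was the lowest of all libraries at 312 FPKM, and its Lamp5 of 52.8 FPKM compared with 168 FPKM on the other side. The part of tissue composition in these values was not tested.

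**Figure D4:**
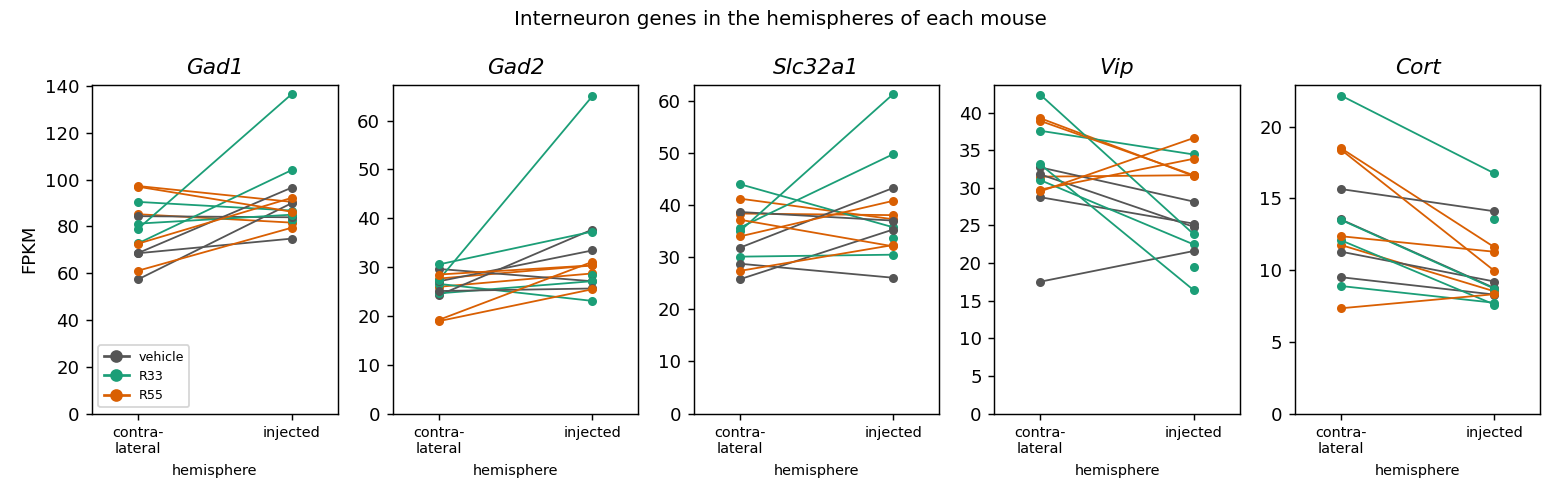
FPKM of Gad1, Gad2, Slc32a1, Vip and Cort in the contralateral and injected hemisphere, with a line for each of the 13 mice with both and a lone point for R33 mouse AE. Cort is lower on the injected side in 12 of 13 mice, and R33 mouse O has the highest injected Gad1, 137 FPKM, and Gad2, 65.0 FPKM.

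Whether the drug effect differed between hemispheres was tested as an interaction. For R55, 0 of 33 members were called, as for 0% of all genes, and 1 had an unadjusted p under 0.05, against 1.84% of all genes. This was Cnr1, whose R55 difference was higher in the injected hemisphere by 0.50 (SE 0.21, unadjusted p = 0.0293, limma adjusted p = 0.999). For R33, 0 members were called and 2 had an unadjusted p under 0.05, against 0.378% of all genes. These were Crh, with a value of -0.48 (SE 0.19, limma adjusted p = 0.9997), and Vip, with -0.53 (SE 0.24, limma adjusted p = 0.9997).

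By embryonic origin, the 11 tested members of medial classes had a median R55 difference of 0.04 and 8 of them were above 0, while the 8 members of caudal classes had a median of -0.01 and 4 were above 0. After R33 the medians were 0.06 and -0.09, with 10 of 11 and 2 of 8 above 0. Over all tested genes the medians were 0.03 and 0.02, and 60.2% and 57.5% of differences were above 0. No member of either origin was called, and the difference between origins was not tested.

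Genes that act next to the members were also not called. The GABA transport and breakdown list, which holds the membrane transporters and the transaminase, had 7 tested genes with a median R55 difference of 0.08, none called. The inhibitory synapse scaffold list had 7 tested genes, of which 6 were lower after either drug, with medians of -0.07 after R55 and -0.06 after R33. Of all 12976 tested genes, 5160 were lower after R55 and 5512 after R33. Its Shisa7, an auxiliary subunit of GABA-A receptors, differed by -0.32 after R55 (SE 0.11, unadjusted p = 0.00691, limma adjusted p = 0.545) and by -0.31 after R33 (SE 0.11, limma adjusted p = 0.834). Among 6 tested genes of the perineuronal net, the matrix around parvalbumin cells, Tnr (tenascin-R) differed by -0.40 after R55 (SE 0.17, unadjusted p = 0.0236) and by -0.36 after R33 (SE 0.17), neither called. Of 12 tested receptors for the member peptides, 6 were above and 6 below 0 after R55. Cckbr, a cholecystokinin receptor gene, was higher after R55 than after R33 by 0.34 (SE 0.15, unadjusted p = 0.0335, limma adjusted p = 0.9998). Astrocyte markers were higher in 4 of 4 genes after R55 and in 3 of 4 after R33, none called. Of all tested genes, 60.2% and 57.5% were higher. Oligodendrocyte markers were higher in 5 of 5 genes after either drug, and endothelial markers were lower in 3 of 3, none called. The endothelial sum over 3 genes was 18.5 to 31.6 FPKM in libraries of mice with a 2-letter label. It was 32.1 to 81.6 FPKM in those of mice with a 1-letter label. Mice with a 2-letter label were 1 of 4 vehicle, 2 of 5 R33 and 2 of 5 R55 mice. The part of the label series in the endothelial differences was not tested. Among the astrocyte markers, Aldh1l1, a folate enzyme gene of astrocytes, differed by 0.38 after R55 (SE 0.14, unadjusted p = 0.0124, limma adjusted p = 0.552) and by 0.31 after R33 (SE 0.15, limma adjusted p = 0.834). The summed level of the 4 genes was 179 to 418 FPKM in vehicle, 182 to 402 FPKM in R33 and 270 to 414 FPKM in R55 libraries, and its part in the member values was not tested. The 11 further interneuron transcription factors had a median of -0.01 after R55 and 0.08 after R33.

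The spread of members between libraries was wide. The median SD of log2 values over the 27 libraries was 0.27 for the 33 tested members and 0.17 for all tested genes. Among tested members, Calb2 had the widest range, with a highest value 8.44 times the lowest, followed by Penk at 8.08 times and Tac1 at 7.09 times. Maf was the steadiest tested member, with a highest value 1.68 times the lowest. The SD that counting error alone would give was 0.01 on the log2 scale for Gad1, against 0.24 between libraries. For the weakly counted Pthlh it was 0.11 against 0.18, and for Crh 0.09 against 0.23, so counting error was a larger part of the spread of such members.

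Penk and Tac1 were highest where striatal markers were highest. Penk measured 142 FPKM in the injected library of R33 mouse N and 84.2 FPKM in that of vehicle mouse L, against 17.6 to 45.4 FPKM in the other 25 libraries. Tac1 measured 29.8 and 17.6 FPKM in these, against 4.20 to 16.8 FPKM in the others. The adenosine receptor gene Adora2a, which marks enkephalin neurons of the striatum, measured 22.3 FPKM in the library of mouse N and 11.5 FPKM in that of mouse L, the only values above 10 FPKM. The contralateral libraries of the same mice had Penk at 25.1 and 22.4 FPKM, within the range of the others. Over the 27 libraries the Pearson r with the striatal sum, both on a log2 scale, was 0.82 for Penk and 0.54 for Tac1. Without the injected libraries of L and N it was 0.39 for Penk and -0.01 for Tac1, so that of Tac1 rests on these libraries.

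Calb2 was high in other libraries. It measured 26.7 and 22.0 FPKM in the injected and contralateral libraries of vehicle mouse J, 19.8 FPKM in the injected library of R55 mouse P and 15.9 FPKM in that of R33 mouse O. The other 23 libraries measured 3.16 to 11.8 FPKM. Dentate gyrus markers, summed over 3 genes, ranged from 0.594 to 31.6 FPKM between libraries and were highest in the injected library of mouse J. They were 28.6 FPKM in the injected library of vehicle mouse M, where Calb2 was 4.25 FPKM. Over the 27 libraries the Pearson r of Calb2 with the dentate sum was 0.49, both on a log2 scale. It was 0.45 without the injected libraries of L and N. The part of dentate tissue in the Calb2 values was not tested. Synpr, which encodes the vesicle protein synaptoporin, reached 52.1 FPKM in the contralateral library of mouse J, against 13.3 FPKM in that of mouse M.

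**Figure D5:**
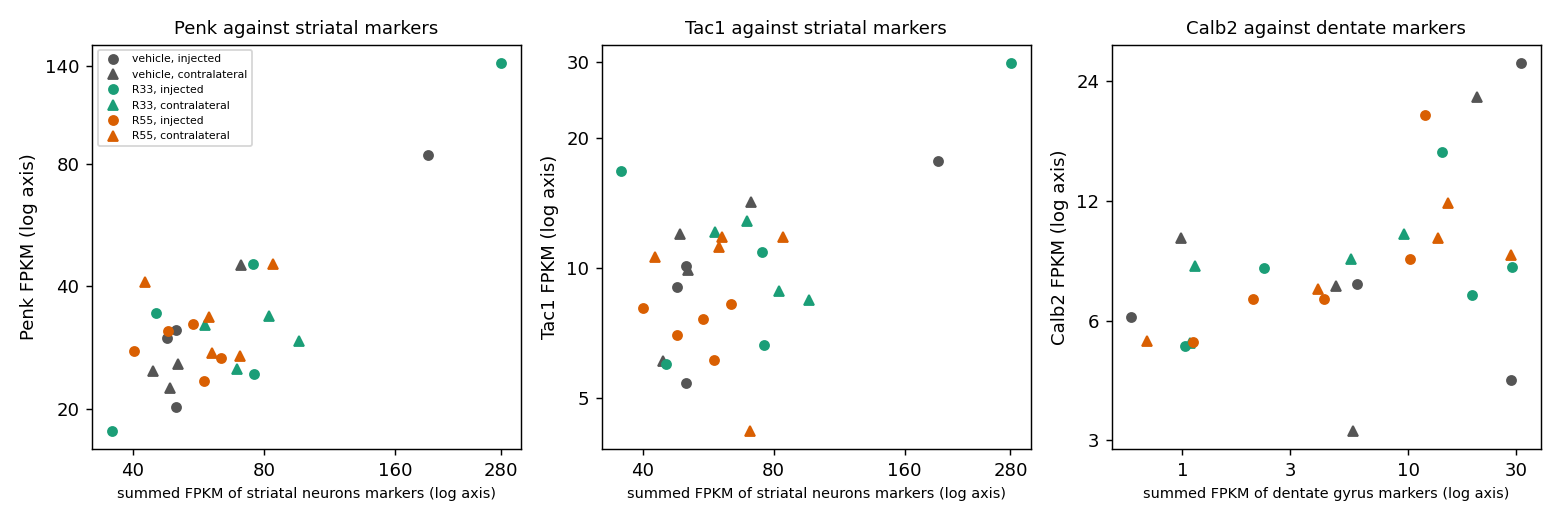
FPKM of Penk and Tac1 against the summed FPKM of 6 striatal markers, and of Calb2 against that of 3 dentate gyrus markers, in 27 libraries on log axes. The injected libraries of R33 mouse N and vehicle mouse L hold the highest Penk (142 and 84.2 FPKM) and the highest striatal sums (281 and 191 FPKM).

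How far members moved together between mice was examined for 8 pairs over 14 mice, with hemispheres averaged and treatment means subtracted. Mouse AE entered with its injected library alone. Gad1 and Slc32a1 gave a Pearson r of 0.78 (permutation p = 0.00091, adjusted over 8 pairs 0.00364) and a Spearman rho of 0.75 (permutation p = 0.0026, adjusted 0.0104), and r was 0.68 without mice R and O. Gad1 and Gad2 gave an r of 0.74 (permutation p = 0.00252, adjusted 0.00672) and a rho of 0.62 (permutation p = 0.0208, adjusted 0.0555), with r = 0.53 without the same mice. Sst and Cort gave the highest r, 0.85 (permutation p = 0.00016, adjusted 0.00128), and a rho of 0.82 (permutation p = 0.00052, adjusted 0.00416), with r = 0.73 without mice R and AD. Within the 9 mice with a 1-letter label r was 0.76 for Gad1 and Slc32a1, 0.85 for Gad1 and Gad2 and 0.75 for Sst and Cort. The last of these was 0.14 without mice Q and R, so within those mice it rests on them.

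Tac1 and Penk gave an r of 0.65 (permutation p = 0.0119, adjusted 0.0238) and a rho of 0.46 (permutation p = 0.101, adjusted 0.161), with r = 0.77 without mice AE and M. Leaving out R33 mouse N, with its striatal markers, gave the lowest r, 0.39. Gad1 with Pvalb, Gad1 with Sst, Sst with Npy and Vip with Calb2 gave r of 0.08, 0.34, 0.43 and 0.21, none passing adjustment by permutation test (adjusted p = 0.799, 0.310, 0.197 and 0.544). Without the 2 farthest mice these were 0.37, 0.32, 0.37 and -0.14. Their rho were 0.16, 0.32, 0.54 and -0.05, with adjusted permutation p of 0.681, 0.354, 0.0974 and 0.867.

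As a description with no test, the pattern of Gad1 over the 14 mouse means was set against all other 12975 tested genes. The 5 genes with the highest Pearson r were Klk6 (0.85), Slc32a1 (0.82), Pdlim1 (0.80), Entpd3 (0.80) and Xrcc3 (0.80). Slc32a1 ranked 2 of 12975 and Gad2 ranked 63, while Pvalb ranked 1666 and Sst 2089.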

How the data were processed

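Female 5xFAD cortex RNA was sequenced in 27 libraries of 14 mice. The authors prepared stranded mRNA libraries, ran HISAT2 against GRCm39 and deposited a table of FPKM for 32 libraries. The counting tool and annotation are not given in the sources used here. The 5 libraries outside the sample list were not used here. The labels gave each sample its treatment and hemisphere.

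Recovered fragments were whole within 0.01 for 100.0% of values, and 15932196 to 38077026 per library set the counting precision. The 12976 genes whose mean reached 1 FPKM were tested by limma 3.58.1 in R 4.3.3 on log2(FPKM + 1), with treatment and hemisphere as additive factors, intensity trend and Benjamini-Hochberg adjustment over all genes, two-sided, calls at adjusted p under 0.05. The design named a test for counts, and FPKM took the limma test it gave for that unit. Fold changes on this scale understate low genes. The mouse is not a term, so libraries of a mouse count as separate and p-values of treatment differences may be too small. Hemisphere differences lie within mice, so their p-values may instead be too large without the mouse as a block. Replicate labels pair hemispheres because they come from the same mouse. Deviations from group means correlated by 0.39 on average in 13 pairs, and by -0.11 between mice of a treatment. Subtracting group means makes the second value negative when the first is positive, so it is not a separate baseline.

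The members and lists were chosen with earlier results of these data known. Named by rule were Gad1, Gad2, Slc32a1, Pvalb, Sst, Vip and Npy, up to 5 members per direction and comparison with unadjusted p under 0.05, and listed genes with unadjusted p under 0.05. Penk, Tac1, Calb2 and further members were described after their values were seen. Permutation tests used 100000 resamples over 14 mice, or all orders over 9. Positions come from GENCODE vM39 on GRCm39, promoters from RefSeq on GRCm38.p6, and coordinates of these builds are not interchangeable. Fits were tested on simulated data with independent libraries, which could not check the effect of leaving out the mouse. Alternatives covered scaling, filters, pseudocount, limma voom on recovered fragments, the mouse, label letters, length, each hemisphere and each mouse left out. Other steps ran in Python 3.11.15 (scipy 1.17.1 for tests, matplotlib 3.10.9 for plots).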

Additional observations from a re-analysis of the deposited data

Results flagged for a closer look

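Values of 14 members were looked at in 6 groups of 4 or 5 libraries each. In 8 of 84 such sets the highest or lowest library lay far from the others. A rate of 1 in 20 would give 4.2 for members chosen without sight of their values. Penk, Tac1 and Calb2 were added after their values were seen and hold most of the 8, so the count cannot be set against that rate. Calb2 was far above the others of its group in 3 libraries. It was 26.7 FPKM in the injected library of vehicle mouse J (others 4.25 to 7.41 FPKM), 15.9 FPKM in that of R33 mouse O (others 5.18 to 8.20 FPKM) and 19.8 FPKM in that of R55 mouse P (others 5.28 to 8.56 FPKM). Reln, at 8.83 FPKM in the injected library of R33 mouse O, lay above the 2.67 to 4.16 FPKM of the other R33 injected libraries.

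Penk was 142 FPKM in the injected library of R33 mouse N (others 17.6 to 45.4 FPKM), and 45.1 FPKM in the contralateral library of vehicle mouse J (others 22.4 to 25.8 FPKM). Tac1 was 4.20 FPKM in the contralateral library of R55 mouse R, below the 10.6 to 11.8 FPKM of the others. Cort was 14.1 FPKM in the injected library of vehicle mouse AH, above the 8.30 to 9.21 FPKM of the others.

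Every member was searched, over each pair of treatments, for hemisphere differences of opposite direction in every mouse. Erbb4 and Nxph1 were found, and how many of all tested genes have this pattern was not counted. Erbb4, the neuregulin receptor gene, was higher on the injected side in 5 of 5 R55 mice and in 0 of 4 vehicle mice, a difference between the groups of 0.39 on the log2 scale. Its interaction test gave an unadjusted p of 0.147, and of 0.0368 with the mouse as a block (limma adjusted p = 0.806). Erbb4 was picked by this same pattern, so these p-values are not separate support for it. Nxph1, which encodes the neurexin ligand neurexophilin, was higher on the injected side in 5 of 5 R55 and 0 of 4 R33 mice, a difference of 0.37 that was not tested.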

How the results depend on the processing

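No member was called in any of the 4 comparisons or the 2 interactions under the 30 or 31 alternatives of each comparison, the 15 of each interaction or the main setting, with a smallest limma adjusted p of 0.183. Fits with the mouse as a replicate block changed no call. The block gave 0 called members between hemispheres, with 7 in place of 4 at an unadjusted p under 0.05, and 0 in both interactions. The share of all genes under 0.05 between hemispheres with the block is not given here. The median member difference stayed within 0.0958, the SD between mice of the mean member value, of its main value. It ran from -0.01 to 0.08 after R55, -0.03 to 0.11 after R33, -0.04 to 0.04 between the drugs and -0.07 to -0.01 between hemispheres. The 11 named differences kept their sign under all alternatives run. Pvalb and Nos1 after R55 were 0.13 and -0.29 in the injected hemisphere alone.

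Among correlations of mouse means, those of Gad1 with Pvalb and of Sst with Npy reversed in mice with a 1-letter label, to -0.30 and -0.0272. Leaving out 1 mouse at a time, Gad1 with Pvalb ran from -0.0833 to 0.31 and Vip with Calb2 from -0.17 to 0.27. Low counts limit Chodl and Tacr1, and 4 to 5 mice per treatment limit all comparisons. The fits without the injected libraries of L, N and O, and without those with high choroid plexus markers, were chosen after seeing the data.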
